A study of Anser anser with 16 samples.

Results

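CGA, LSHB and NR5A1 are 3 genes of the pituitary cells that make glycoprotein hormones, and they were followed here in the pituitary and the hypothalamus of geese that differed in growth rate. CGA and NR5A1 were taken by gene name from a table of 19448 annotated genes. Luteinising hormone beta was taken from a table of 120847 genes of a de novo transcript assembly. It is the assembled gene whose best protein match is the entry LSHB. The 3 genes were taken by name, with earlier results of these data known. The birds were male White Kołuda geese (Anser anser) of strain W33 at day 108. The high growth rate group held birds 49, 50, 52 and 54, and the low growth rate group held birds 33, 37, 38 and 40. Each bird gave a pituitary and a hypothalamus library, so the 4 groups have 4 libraries each and 16 in all. All birds were kept in the same oat-fattening system, in pens indoors at first and later with free range, and no further treatment is named. The sources used here do not say by which rule a bird counted as high or low, and no body weight was used.

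CGA encodes the alpha subunit that luteinising hormone, follicle-stimulating hormone and thyroid-stimulating hormone share. Each of these hormones is a pair of that alpha subunit with a beta subunit of its own, and the beta subunit sets which receptor is bound. Gonadotrophs make luteinising and follicle-stimulating hormone, thyrotrophs make thyroid-stimulating hormone, and both kinds of cell transcribe CGA. NR5A1, also called steroidogenic factor 1, is an orphan nuclear receptor that marks gonadotrophs in the mammalian pituitary and is needed for the normal expression of their hormone subunit genes. In the mammalian brain its best known site is the ventromedial nucleus of the hypothalamus. Of 6 listed subunits of glycoprotein hormones, the 2 found by gene name or protein entry were CGA and luteinising hormone beta. No values are given here for the beta subunits of follicle-stimulating and thyroid-stimulating hormone. The same holds for the receptor for gonadotropin-releasing hormone.

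CGA (ENSACDG00005009350) lies on scaffold KZ155962.1 from 2571872 to 2576036 and NR5A1 (ENSACDG00005000077) on scaffold KZ155848.1 from 10978964 to 10995268, in the coordinates of the deposited table. Both are listed there as protein coding, CGA with 3 and NR5A1 with 11 transcripts. The assembled LSHB gene matched the luteinising hormone beta subunit of the turkey at 81.9% identity, over 94 residues or 59.1% of that protein. The other genes named from the assembly below are likewise known only by their best protein match.

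Total counts per library ran from 8543585 to 18068056 in the gene table and from 15372263 to 35955607 estimated counts in the assembled table. Levels are library-scaled count rates, written CPM, with TMM scaling. CPM values are not divided by gene length, so they are compared between birds and tissues and not between genes. In whole tissue, fewer cells of a type and less RNA per cell cannot be told apart. The tissue labels were checked against marker genes. In the pituitary 7 of 8 tested markers of other pituitary hormone cells were higher, and 9 of 10 neuronal and 8 of 8 astrocyte and myelin markers were lower. These counts need an adjusted p below 0.05 in edgeR and at least a 2-fold change. By that rule 14.9% of all genes in the gene table were higher and 19.5% lower. Among assembled genes the shares were 12.7% and 14.7%. Libraries of 2 birds need naming beforehand. The pituitaries of birds 50 and 38 had the highest sums of the skeletal muscle markers ACTA1 and TNNC2 in their groups, at 929 and 206 CPM, where the lowest sums were 32.2 CPM in the high and 28.3 CPM in the low growth rate group. The hypothalamus of bird 38 had the highest level of several pituitary hormone genes, as given below.

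All 3 genes had far more counts in pituitaries than in hypothalami. CGA averaged 24597 ± 10804 CPM in the pituitary and 18.8 ± 15.5 CPM in the hypothalamus (SD, n = 8 each, scaled over all 16 libraries). LSHB averaged 5669 ± 2122 estimated CPM in the pituitary and 4.46 ± 4.42 in the hypothalamus. NR5A1 averaged 264 ± 102 CPM in the pituitary and 13.2 ± 3.47 CPM in the hypothalamus. For each gene the lowest pituitary lay above the highest hypothalamus.

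CGA took between 1.22% and 3.86% of all gene counts in a pituitary library and ranked 5th by mean count. LSHB took between 0.315% and 0.887% of the assembled counts and ranked 10th, and NR5A1 between 0.0139% and 0.0393% of gene counts, at rank 449. In the hypothalamus the same genes stood at ranks 8308, 22862 and 9248. Ranks are by count without division by gene length, and that of LSHB is among assembled genes. They are therefore read between tissues and not between the 3 genes.

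On the log2 scale, pituitary over hypothalamus, the difference was 10.41 ± 0.49 for CGA (SE; adjusted p = 1.49e-11), 10.37 ± 0.52 for LSHB (adjusted p = 1.21e-10) and 4.30 ± 0.24 for NR5A1 (adjusted p = 1.2e-10), by edgeR's quasi-likelihood test with Benjamini-Hochberg adjustment over all genes. Of all genes tested, 34.4% passed this comparison in the gene table (adjusted p below 0.05, with at least a 2-fold change), made up of 14.9% higher and 19.5% lower in the pituitary, and 27.5% passed in the assembled table, 12.7% higher and 14.7% lower. The fit behind these values, here and for the lists below, did not pair the tissues by bird. With the bird as a block the 3 differences were 10.48, 10.54 and 4.26. Their adjusted p-values in edgeR were then 1.38e-08, 6.79e-08 and 1.39e-08.

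**Figure D1:**
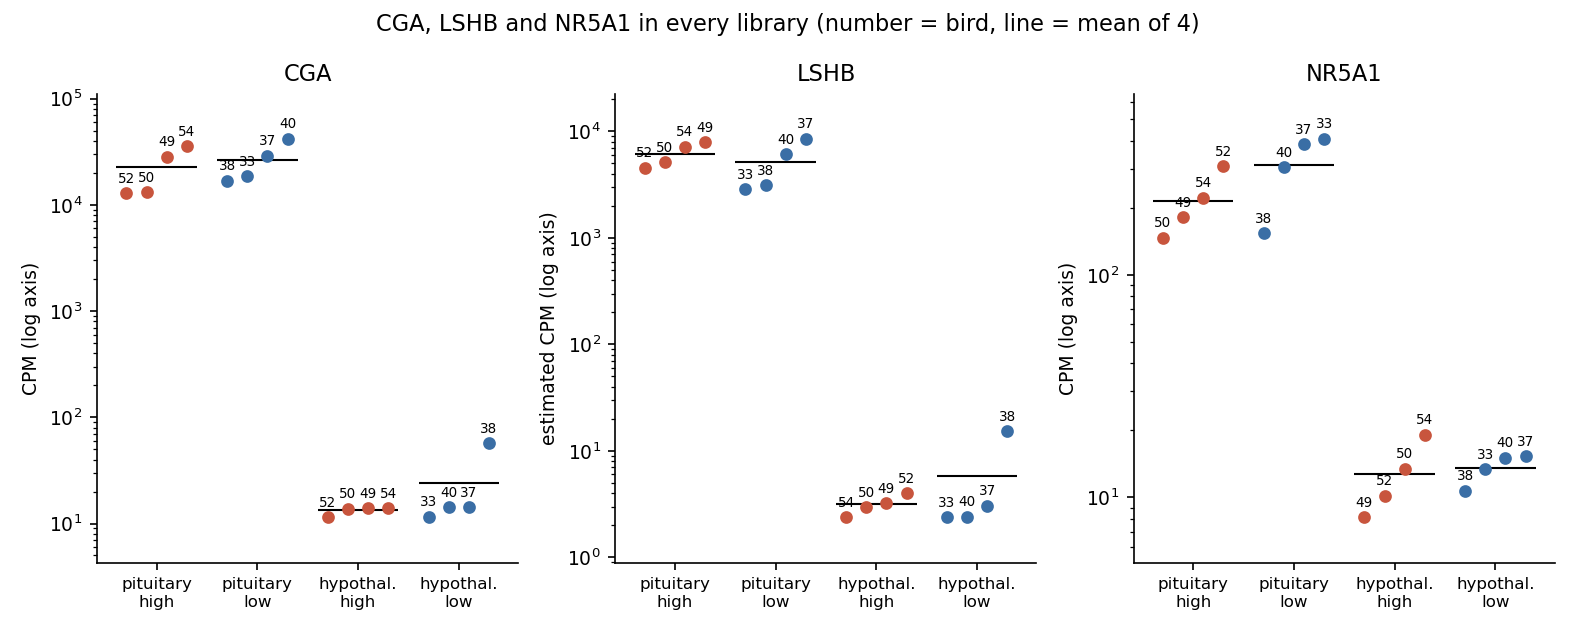
CPM of CGA and NR5A1 and estimated CPM of LSHB on log axes, scaled over all 16 libraries, in every library of the 4 groups, with high (red) left of low growth rate (blue). Points carry the bird number and lines are means of 4 birds. Pituitary levels lie far above hypothalamic ones, the growth rate groups overlap in each panel and tissue, and bird 38 stands above the other hypothalami in CGA and LSHB.

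Transcription factors of gonadotrophs and of other pituitary cells were mostly higher in the pituitary. Of 12 measured members of the list of gonadotroph and pituitary transcription factors, 9 rose in the pituitary over the hypothalamus, NR5A1 among them, and 0 fell, with a median log2 difference of 3.45 against 0.06 over all genes of the gene table and 0.14 over all assembled genes. LHX3, a LIM homeodomain factor needed for the pituitary to form in mice, was higher by 7.81 ± 0.28 on the log2 scale. For POU1F1, which acts in the cells of growth hormone, prolactin and thyroid-stimulating hormone, the difference was 8.52 ± 0.18, and for TBX19, the factor of corticotrophs, 5.03 ± 0.15.

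The other factors of this list that passed were higher by smaller amounts. FOXL2, which takes part in the transcription of the follicle-stimulating hormone beta gene in mammals, was higher by 4.33 ± 0.23, GATA2, a factor of mouse gonadotrophs and thyrotrophs, by 3.78 ± 0.23, and EGR1, which GnRH induces and which acts on the luteinising hormone beta promoter in mammals, by 3.11 ± 0.29. SIX3, a homeodomain factor of the forebrain and pituitary, was higher by 2.70 ± 0.11. The remaining members did not reach the fold: NR0B1, a nuclear receptor that represses NR5A1 in mammals, differed by 0.76 ± 0.18, ISL1 by 0.53 ± 0.13 and SIX6 by 0.09 ± 0.18. Adjusted p-values of the members named here as higher were at most 6.72e-08 in edgeR.

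Receptors through which gonadotrophs receive signals went in both directions. Of 12 measured, 5 rose and 2 fell in the pituitary. For this list and those that follow, the shares over all genes were 14.9% higher and 19.5% lower in the gene table. Among assembled genes they were 12.7% and 14.7%. The progesterone receptor PGR was higher by 3.10 ± 0.24, the oestrogen receptor ESR1 by 2.80 ± 0.12, the glucocorticoid receptor NR3C1 by 1.19 ± 0.18 and the leptin receptor LEPR by 3.93 ± 0.16, on the log2 scale. ADCYAP1R1, the receptor for PACAP, fell by 4.97 ± 0.17 and BMPR1B, a receptor for bone morphogenetic proteins, fell by 1.00 ± 0.14. The calls of NR3C1 and BMPR1B sit at the limit of 2-fold: without bird 33 NR3C1 read 0.98, and without bird 37, 40, 50, 52 or 54 BMPR1B read between -0.99 and -0.96.

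Activin raises and follistatin blocks the transcription of the follicle-stimulating hormone beta subunit in mammals. Of 8 measured genes of that system, 4 rose in the pituitary and 1 fell. INHBA, the subunit of activin A, was higher by 2.87 ± 0.18, and the activin-binding proteins FST (follistatin) and FSTL3 by 1.71 ± 0.24 and 2.21 ± 0.17. SMAD3, which carries the activin signal to the nucleus, was higher by 1.69 ± 0.14, and INHBB, the subunit of activin B, fell by 2.42 ± 0.18.

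Among genes of signalling downstream of GnRH, 7 of 14 rose and 3 fell. RGS2, which limits G protein signalling, was higher by 4.18 ± 0.23, and the phosphatase gene DUSP1 by 2.92 ± 0.15. The early response genes NR4A1, FOS, ATF3 and JUN were higher by 2.63 ± 0.32, 2.12 ± 0.29, 1.65 ± 0.25 and 1.00 ± 0.11, beside EGR1 above. PRKCB, a protein kinase C gene (-1.99 ± 0.10), and PLCB1, a phospholipase C (-1.70 ± 0.11), were among those that fell. The call of JUN was lost with 5 other settings and without bird 33, 38 or 54, with log2 differences of 0.93 to 0.99.

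Gonadotropins are glycosylated, folded in the endoplasmic reticulum and stored in dense core granules. Of 12 measured genes of glycosylation and folding, 3 rose and 0 fell. CHST9, a sulfotransferase that adds sulfate to terminal N-acetylgalactosamine, was higher by 2.66 ± 0.23, and the disulfide isomerases PDIA4 and PDIA3 by 1.71 ± 0.21 and 1.27 ± 0.11. CHST8, the related sulfotransferase known for luteinising hormone in mice, differed by 0.65 ± 0.22 and did not reach the fold. Of 12 genes of granules and prohormone processing, 3 rose, namely the granins CHGA (6.90 ± 0.19), SCG3 (2.48 ± 0.14) and CHGB (1.92 ± 0.23), and 4 fell, namely the convertase PCSK2 (-2.33 ± 0.12) and the vesicle fusion genes VAMP2 (-2.30 ± 0.16), SNAP25 (-3.15 ± 0.08) and SYT1 (-3.92 ± 0.10).

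CGA belongs to thyrotrophs as well. Of 8 measured genes of thyrotrophs and thyroid feedback, 3 rose in the pituitary and 0 fell: TRHR, the receptor for thyrotropin-releasing hormone, by 2.99 ± 0.20, DIO2, the deiodinase that activates thyroid hormone, by 2.07 ± 0.12 and SSTR5, a somatostatin receptor, by 1.46 ± 0.17. Of the 4 measured genes of the pars tuberalis and photoperiod list, CRY1, a clock gene, was higher by 1.496 ± 0.08, and TEF, a photoperiod-responsive transcription factor of the mammalian pars tuberalis, fell by 1.09 ± 0.08. EYA3, which takes part in the photoperiodic control of thyroid-stimulating hormone in mammals, was higher by 1.01 ± 0.10, at the limit of 2-fold, and read 0.93 to 1.00 in the 7 settings that ended the call. Of the list of hypothalamic inputs only somatostatin, SST, was measured, and it fell by 6.53 ± 0.91 in the pituitary.

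Steroid synthesis genes, some of which NR5A1 controls in the adrenal and gonads, gave 1 member that rose and 2 that fell among 8. These counts are near the shares over all genes, 14.9% higher and 19.5% lower in the gene table. SCARB1, a lipoprotein receptor that supplies cholesterol, was higher in the pituitary by 1.38 ± 0.07. CYP19A1, the aromatase gene, fell by 1.15 ± 0.23 and FDXR, which passes electrons to mitochondrial cytochrome P450 enzymes, fell by 1.11 ± 0.20, a call lost without bird 38 (-0.99) or 52 (-0.96).

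**Figure D2:**
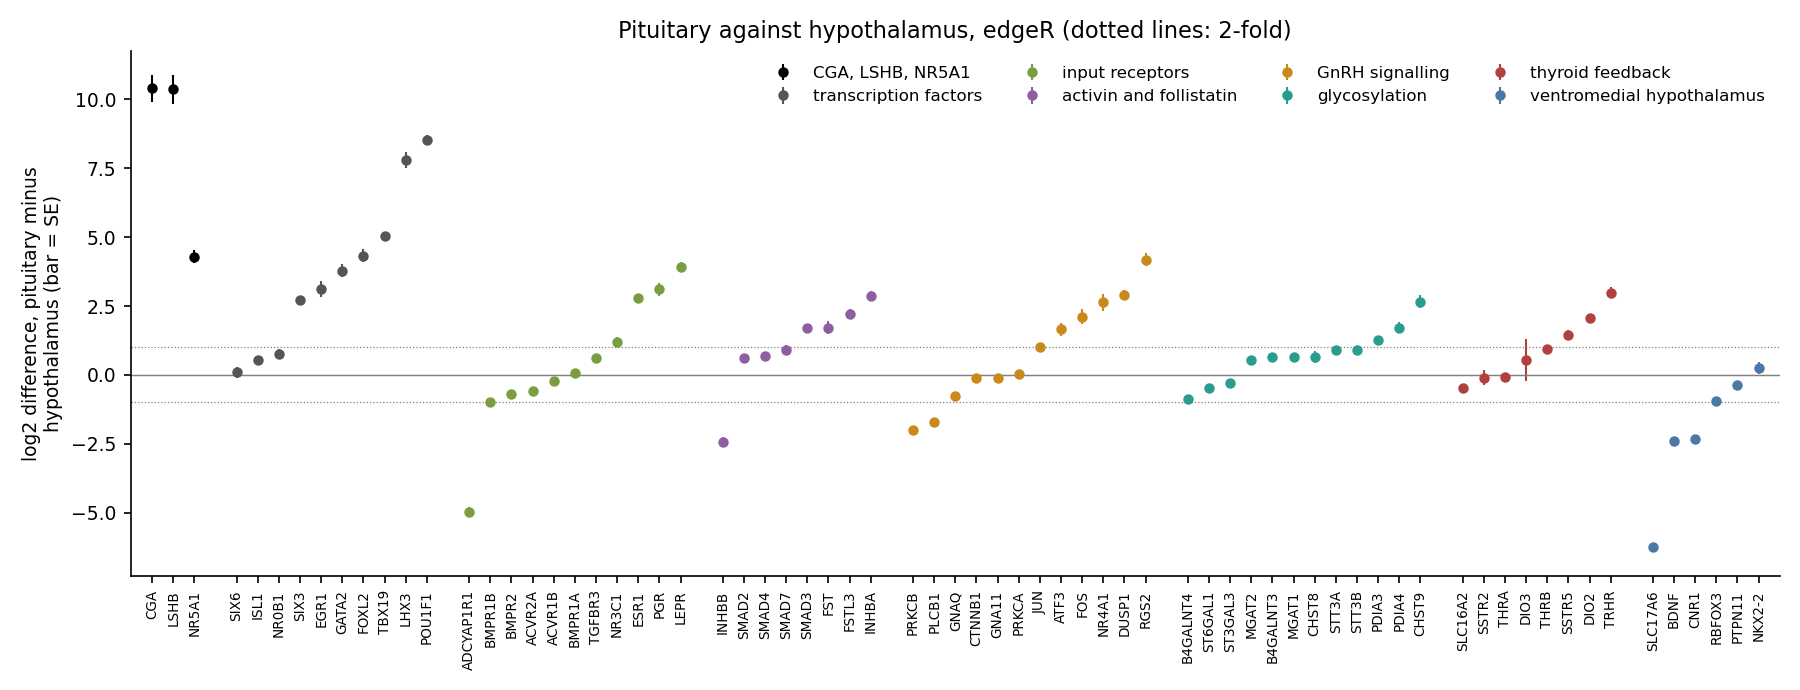
Log2 difference between pituitary and hypothalamus (bars, SE from edgeR; dotted lines, 2-fold) for CGA, LSHB and NR5A1 and for the measured genes of 7 lists that are reported here, each gene drawn once under the first list that holds it. CGA and LSHB, near 10.4, lie above every other gene drawn, and NR5A1, at 4.30, lies among the pituitary transcription factors. The hormone genes PRL and GH, which are not drawn, differed by 10.94 ± 0.43 and 10.47 ± 0.53.

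CGA and LSHB on the one hand and NR5A1 on the other differed in how much of the pituitary level was seen in the hypothalamus of the same bird. For CGA the hypothalamus held between 0.034% and 0.337% of the pituitary CPM of the same bird, with a median of 0.0559% over 8 birds. For LSHB the range was 0.0334% to 0.491%, with a median of 0.0494%. For NR5A1 it was 3.27% to 9.16%, with a median of 4.71%, so the lowest bird for NR5A1 lay above the highest for CGA and LSHB.

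The hormone genes PRL (prolactin) and GH (growth hormone, from the assembly), which are not made by gonadotrophs, had medians of 0.046% and 0.0546%, close to those of CGA and LSHB. POMC, the corticotropin precursor that neurons of the arcuate nucleus also transcribe, had a median of 0.304%. In each of these 5 hormone genes the highest share was that of bird 38, at 0.337% for CGA, 0.491% for LSHB, 0.265% for PRL, 0.288% for GH and 0.505% for POMC. The next highest shares were 0.104%, 0.0878%, 0.0869%, 0.0677% and 0.387%. A share also depends on the pituitary level, and bird 38 had the lowest pituitary POMC (21465 CPM) and PRL (12416 CPM). Its hypothalamic POMC, 108 CPM, was not the highest, with 150 CPM in bird 54 and 117 CPM in bird 40. For NR5A1 the highest share was that of bird 50, and bird 38 had 6.96%. POU1F1, made by pituitary cells other than gonadotrophs, stood at 1.20 CPM in the hypothalamus of bird 38. That was the highest value of the low growth rate group, whose median was 0.867 CPM. Over the 8 hypothalami POU1F1 ranged from 0.607 to 1.23 CPM, a low level in every bird.

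Known companions of NR5A1 in the ventromedial hypothalamus had no common direction between the tissues. Of 9 measured genes of that list, 3 rose in the pituitary, NR5A1, ESR1 and LEPR as above, and 3 fell: SLC17A6, a vesicular glutamate transporter (-6.26 ± 0.16), BDNF, a neurotrophin (-2.41 ± 0.17), and CNR1, a cannabinoid receptor (-2.34 ± 0.13). The hypothalamic NR5A1 values rest on 111 to 298 counts a library.

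**Figure D3:**
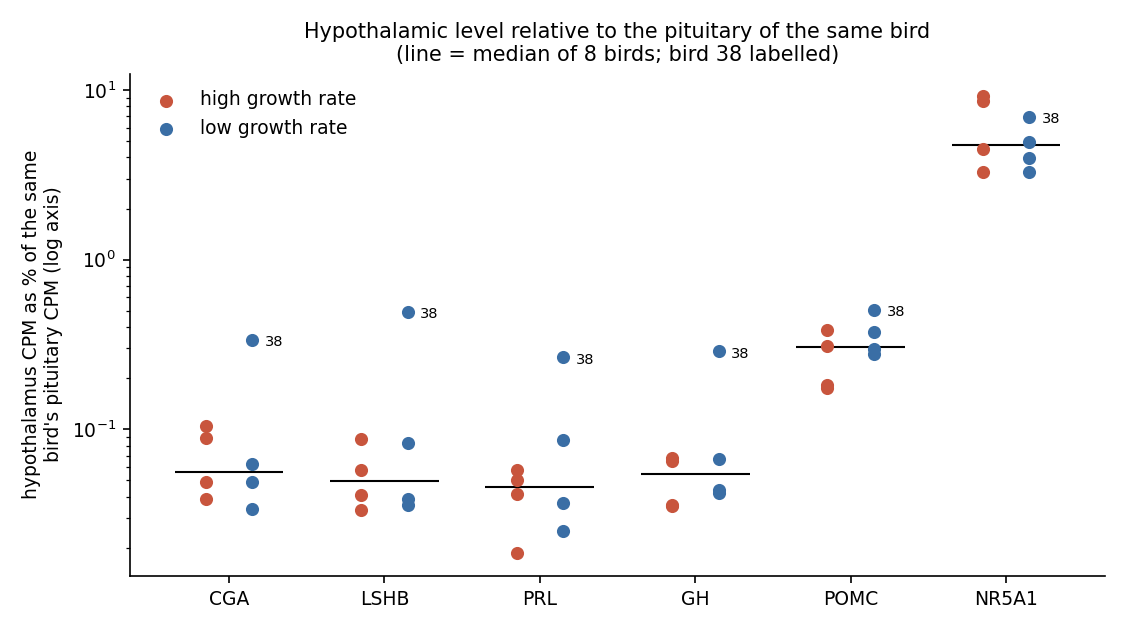
Hypothalamic CPM as a percentage of the pituitary CPM of the same bird (log axis), high (red) left of low growth rate (blue), for CGA, LSHB, PRL, GH, POMC and NR5A1. Lines are medians of 8 birds. Medians of CGA, LSHB, PRL and GH lie between 0.046% and 0.0559%, that of POMC at 0.304% and that of NR5A1 at 4.71%. Bird 38 has the highest percentage in all but NR5A1, though not the highest hypothalamic CPM of POMC.

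The study asked how the axis differs with growth rate, and in the pituitary none of the 3 genes passed that comparison. CGA measured 26787, 12450, 12061 and 33862 CPM in pituitaries of the high growth rate birds 49, 50, 52 and 54, against 17317, 27225, 15844 and 39478 CPM in the low growth rate birds 33, 37, 38 and 40. Each group holds 2 birds with low and 2 with high levels, and the groups overlap. The means were 21290 ± 10825 CPM at high and 24966 ± 10915 CPM at low growth rate (SD, n = 4 each), and the log2 difference was -0.23 ± 0.40 (SE; adjusted p = 1.00 in edgeR). Its sign turned without bird 40, to 0.08.

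LSHB stood at 8368, 5519, 4919 and 7739 estimated CPM in the high growth rate birds 49, 50, 52 and 54, against 3005, 9195, 3354 and 6601 in the low growth rate birds 33, 37, 38 and 40. The lowest pituitaries, of birds 33 and 38, and the highest, of bird 37, were all of low growth rate, and the high growth rate birds lay between them. The means were 6636 ± 1675 at high and 5538 ± 2926 estimated CPM at low growth rate, a log2 difference of 0.26 ± 0.35 (adjusted p = 1.00 in edgeR). The difference read 0.62 without bird 37, and it read 0.06, 0.08, 0.12 and 0.18 without bird 33, 38, 49 or 54.

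NR5A1 stood at 171, 138, 288 and 211 CPM in the high growth rate birds 49, 50, 52 and 54, against 381, 361, 143 and 288 CPM in the low growth rate birds 33, 37, 38 and 40. The groups overlap through bird 38, the lowest of the low growth rate group, and bird 52, the highest of the high growth rate group. The means were 202 ± 64.8 at high and 293 ± 108 CPM at low growth rate, a log2 difference of -0.54 ± 0.31 (unadjusted p = 0.113, adjusted p = 1.00 in edgeR).

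Birds 50 and 38, whose pituitaries were lowest in NR5A1 in their groups, are those with the highest muscle marker sums in their groups, and they also had the highest sums of 7 astrocyte and myelin markers there, at 358 and 255 CPM, where the lowest were 63.8 and 54.2 CPM. All 3 tested muscle markers had higher means at high growth rate, with a median log2 difference of 2.05 and 0 called. No marker was at 0. Bird 50 carried much of this. CKM, another muscle marker, stood at 83.2 estimated CPM there, where group medians were 3.17 at high and 1.365 at low growth rate. The sums of ACTA1 and TNNC2 had medians of 71.6 CPM at high and 49.15 CPM at low growth rate, beside 929 CPM in bird 50. Of all genes tested, 51.3% in the gene table and 49.3% of assembled genes were higher at high growth rate. Birds 50 and 38 also had the highest sums of 4 assembled blood markers in their groups, at 10810 and 13850 estimated CPM. The lowest were 4253 and 4615. Of 5 blood markers 0 were higher at high growth rate (median -0.33, 0 called). Of 7 folliculostellate and stem-like cell markers 0 were higher at high growth rate (median -0.18, 0 called), with sums of 574 to 875 CPM at high and 757 to 1303 CPM at low growth rate. The part of these cell types in the NR5A1 values was not tested, and leaving out single birds does not test it. Without bird 38 the NR5A1 difference was -0.78 ± 0.23 (unadjusted p = 0.00854) and without bird 50 it was -0.39 ± 0.32 (unadjusted p = 0.245). The NR5A1 difference was -0.77 ± 0.31 without bird 52 (unadjusted p = 0.0383) and -0.39 ± 0.33 without bird 33 (unadjusted p = 0.26). All these values are from edgeR, with adjusted p-values of at least 0.999 over all alternatives.

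In this comparison 0.0% of 13471 genes of the gene table and 0.0% of 92645 assembled genes passed with edgeR, with 266 genes (1.97%) and 1959 assembled genes (2.11%) at an unadjusted p under 0.05. DESeq2 called 5 genes and 262 assembled genes, and CGA, NR5A1 and LSHB were not among them. In the authors' deposited table, with signs turned to high minus low, CGA had a log2 difference of -0.23 with an adjusted p of 1.00, NR5A1 -0.54 with an adjusted p of 0.0822 and LSHB 0.27 with an adjusted p of 1.00. By p-value NR5A1 ranked 58th of 12486 genes in the authors' deposited table and 759th of 13471 genes in edgeR. The signs were turned because each of the 51 genes and 57 assembled genes that the authors call in the pituitary runs opposite to the difference of the group means of their counts.

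Each of the 3 genes varied more between birds of a group than most genes did. The SD of log2 CPM within growth rate groups was 0.69 for CGA and 0.56 for NR5A1 in the pituitary, where the median over 11106 genes with a mean of at least 5 CPM was 0.216, and 95.8% and 93.1% of those genes had a smaller SD. For LSHB it was 0.61, where the median of 20271 assembled genes was 0.269 and 91.1% had a smaller SD.

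In the pituitary 0.0% of 13471 genes and 0.0% of 92645 assembled genes passed, so no gene that acts around the members could be called. The 0 calls thus say nothing particular about the lists. These were transcription factors, input receptors, activin genes, GnRH signalling, thyroid feedback, glycosylation, granules and steroid synthesis. The list medians ran from -0.11 for GnRH signalling to 0.09 for transcription factors on the log2 scale, beside 0.00 over all genes tested. The members named next are those nearest to the threshold, and none of them is a called change.

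Among the transcription factors TBX19 had the smallest p. It stood at 101, 87.8, 109 and 149 CPM in the high growth rate birds 49, 50, 52 and 54, against 100.5, 73.2, 78.4 and 83.4 CPM in the low growth rate birds 33, 37, 38 and 40, a log2 difference of 0.41 ± 0.17 (unadjusted p = 0.0342, adjusted p = 1.00 in edgeR). The groups overlap through bird 33. NR0B1 differed by 0.53 ± 0.32 and was highest in bird 49, at 35.4 CPM, where the other pituitaries lay between 10.9 and 18.7 CPM.

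BMPR1A, a receptor for bone morphogenetic proteins, was the input receptor with the smallest p. It stood at 39.4, 34.4, 39.9 and 44.6 CPM in the high growth rate birds and at 49.5, 50.5, 49.3 and 51.6 CPM in the low growth rate birds, in the same order of birds, and the groups did not overlap (-0.35 ± 0.10, unadjusted p = 0.00691, adjusted p = 1.00 in edgeR). In the pituitary 1.45% of all genes had groups without overlap. LEPR differed by -0.17 ± 0.10.

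Of the early response genes, which GnRH induces in mammalian gonadotrophs but which many stimuli induce in many cells, JUN, FOS and EGR1 had lower means at high growth rate, while NR4A1 (0.48 ± 0.46) and ATF3 (0.08 ± 0.34) had log2 differences above 0. JUN averaged 195.6 CPM at high and 258 CPM at low growth rate (-0.40 ± 0.18, unadjusted p = 0.0453), FOS 411 and 695 CPM (-0.76 ± 0.44) and EGR1 1027 and 1601 CPM (-0.64 ± 0.46), with adjusted p-values of 1.00 in edgeR throughout. FOS stood at 386, 133, 510 and 614 CPM in the high growth rate birds 49, 50, 52 and 54, against 319, 834, 876 and 750 CPM in the low growth rate birds 33, 37, 38 and 40. Bird 50 was the lowest in FOS and EGR1, and bird 33 the lowest of the low growth rate group.

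Of the activin genes, FSTL3 (0.42 ± 0.21) and SMAD3 (-0.42 ± 0.21) came nearest, and of the glycosylation genes MGAT1, an N-glycan branching enzyme (0.28 ± 0.13). DIO2 differed by 0.50 ± 0.17 (unadjusted p = 0.0143) with estimated CPM of 51.1, 53.5, 62.0 and 63.7 in the high growth rate birds, against 51.2, 31.0, 35.9 and 44.2 in the low growth rate birds, where bird 33 overlaps. CYP19A1 stood at 10.7, 9.46, 12.3 and 16.9 estimated CPM in the high growth rate birds 49, 50, 52 and 54, against 7.05, 7.92, 9.04 and 7.57 in the low growth rate birds 33, 37, 38 and 40. These groups did not overlap, as was so for 2.23% of assembled genes, and the log2 difference was 0.64 ± 0.19 (unadjusted p = 0.00895, adjusted p = 1.00 in edgeR). SNAP25 differed by 0.21 ± 0.09.

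**Figure D4:**
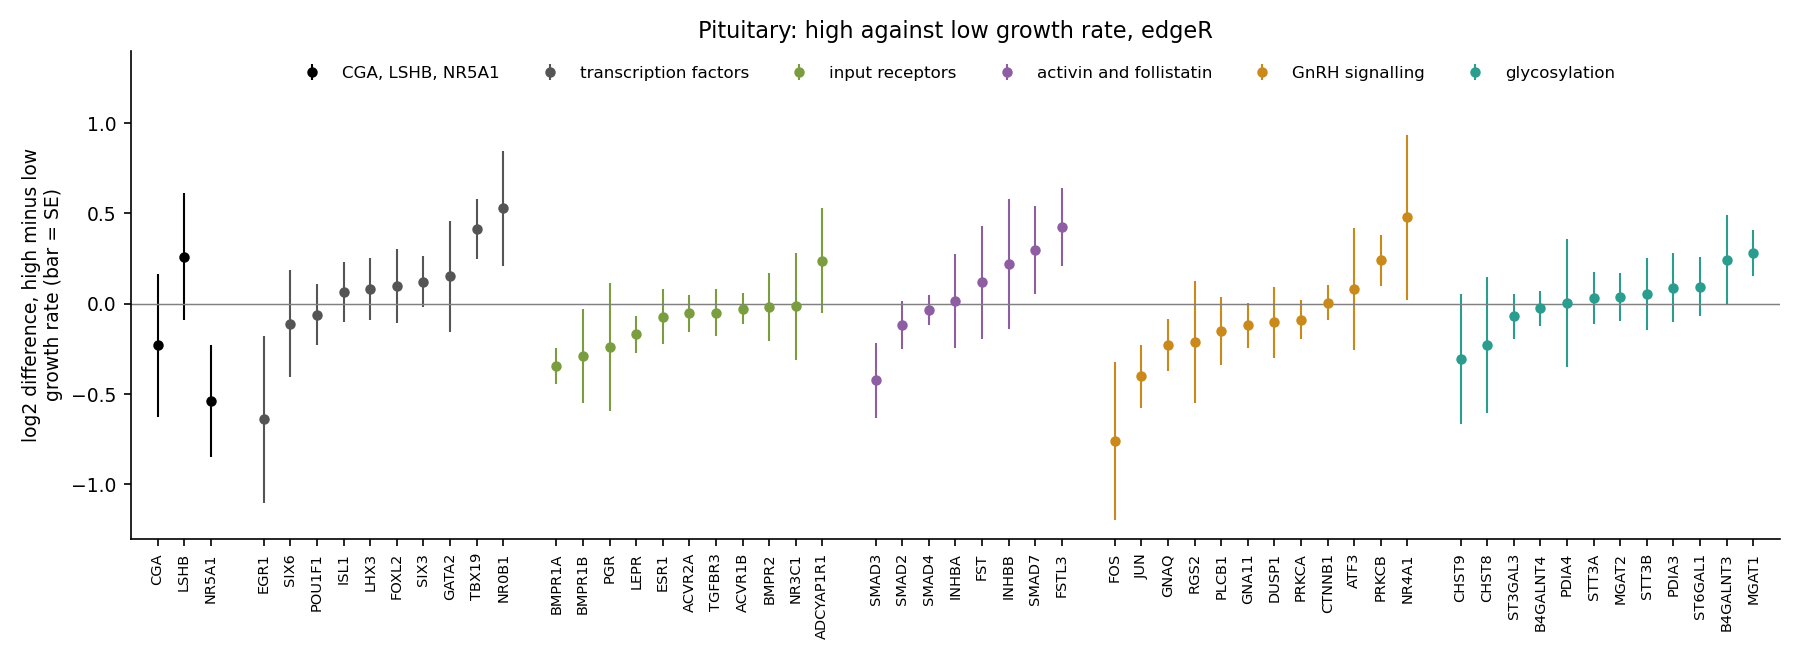
Log2 difference between high and low growth rate in the pituitary (bars, SE from edgeR) for CGA, LSHB and NR5A1 and for the measured genes of 5 lists that are reported here. CGA and NR5A1 lie below 0 and LSHB above it, at -0.23, -0.54 and 0.26. No gene drawn passed the test, as was so for all genes tested.

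The hormone subunits were also set against each other within each bird, a comparison chosen after their values were seen. The ratio of LSHB to CGA uses CPM of different tables, so its size is no ratio of molecules and only its differences between birds can be read. It was 0.312, 0.443, 0.408 and 0.229 in the high growth rate birds 49, 50, 52 and 54, against 0.174, 0.338, 0.212 and 0.167 in the low growth rate birds 33, 37, 38 and 40. Bird 37 lies among the high growth rate birds, and bird 54 is nearest to the low growth rate birds. The mean log2 ratio was -1.57 ± 0.43 at high and -2.23 ± 0.47 at low growth rate (SD, n = 4 each), a difference of 0.66 ± 0.32 (SE) with a two-sided exact permutation p of 0.114, where 0.0286 is the smallest p this design allows. With LSHB and the more abundant assembled alpha subunit gene both from the kallisto or the Salmon table the difference was 0.63 or 0.66, each with an exact permutation p of 0.0857, and without single birds it ran from 0.53 to 0.88.

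Across the 8 pituitaries CGA and LSHB tended to be high in the same birds, without passing a test. Birds 37, 40, 49 and 54 were the highest 4 in both genes and birds 33, 38, 50 and 52 the lowest 4. Pearson's r of log2 CPM was 0.63 (exact permutation p = 0.104, adjusted over the 3 pairs 0.312) and Spearman's rho 0.57 (exact permutation p = 0.151, adjusted 0.453). Without the 2 birds farthest from the median of CGA, 40 and 52, r was 0.70, and within growth rate groups, taken as deviations from the group means, it was 0.77. With both genes from the kallisto table r was 0.71 (exact permutation p = 0.0587, adjusted 0.176).

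NR5A1 was not shown to follow either subunit. Its r with CGA was 0.25 (exact permutation p = 0.531, adjusted 0.797), with a rho of 0.21 (exact permutation p = 0.619, adjusted 0.929), and r was 0.35 without birds 40 and 52. Its r with LSHB was 0.01 (exact permutation p = 0.97, adjusted 0.97), with a rho of -0.05 (exact permutation p = 0.935, adjusted 0.935), and r was -0.52 without birds 38 and 50, so it rests on those birds. Bird 33 shows the disparity: its pituitary had the highest NR5A1, 381 CPM, and the lowest LSHB, 3005 estimated CPM. Without bird 33, r of NR5A1 was 0.40 with CGA (exact permutation p = 0.354) and 0.48 with LSHB (exact permutation p = 0.278). The r values of NR5A1 thus depend on single birds.

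**Figure D5:**
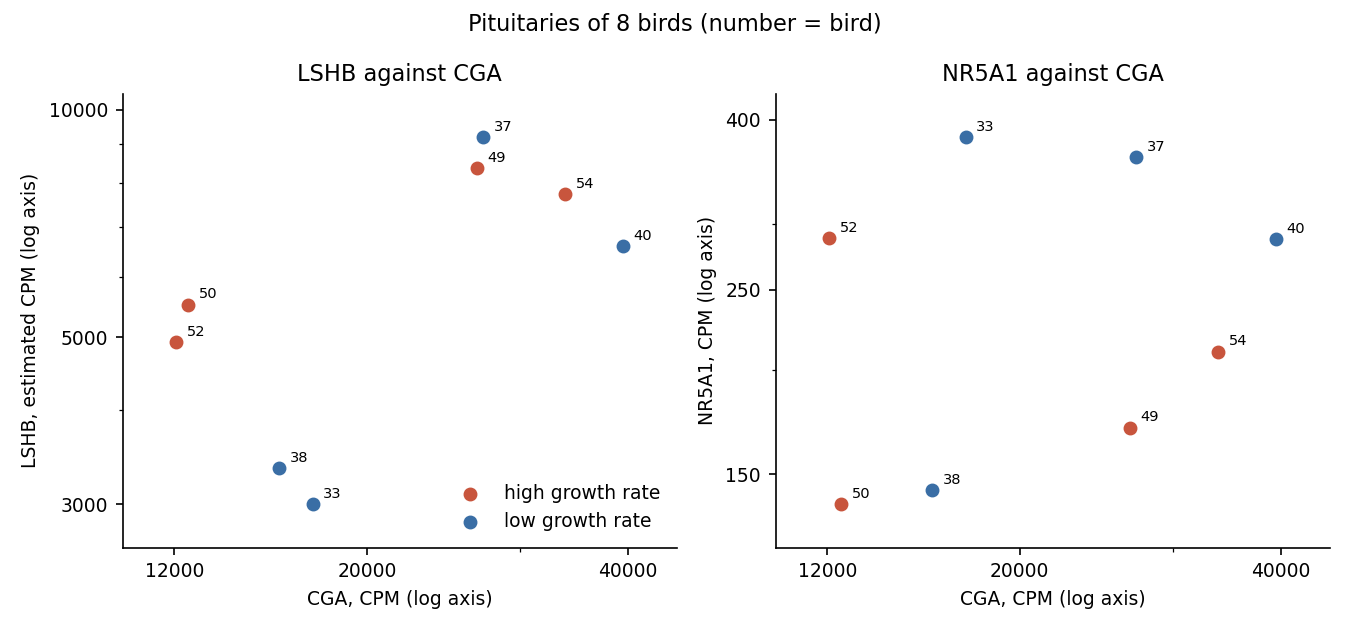
LSHB (left) and NR5A1 (right) against CGA in the pituitaries of 8 birds, CPM on log axes, high growth rate in red and low in blue, with bird numbers. The 4 birds highest in CGA are also the 4 highest in LSHB (r = 0.63), and NR5A1 ranges from 171 to 361 CPM in those birds and from 138 to 381 CPM in the 4 birds lowest in CGA (r = 0.25).

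Each gene had its own nearest genes by Pearson's r of log2 CPM over the 8 pituitary libraries, given as a description. Among 9001 named genes with at least 5 CPM, those most like CGA were MTPAP (r = 0.98), TRUB1 (0.97), PDIA4 (0.97), CRELD2 (0.97) and ALG12 (0.97). Those most like NR5A1 were LAMB3 (0.96), SFI1 (0.93), POLA1 (0.93), GREB1L (0.91) and LRRN2 (0.91). Among 12010 assembled genes with a protein match, those most like LSHB had the entries PIGM (0.95), SELM (0.95), QORL2 (0.91), VSI10 (0.88) and SNX1 (0.88). Over the 8 hypothalami, where 9118 named genes were compared, TRAK1 (0.96), PDIA5 (0.95), PDAP1 (0.95) and NGEF (0.93) were among the 5 most like NR5A1. Libraries share depth and tissue makeup, which such correlations also carry. The genes named are the highest of 9001, 12010 or 9118 over 8 libraries. How high r runs by chance in so many genes was not tested.

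In the hypothalamus none of the 3 genes passed the comparison of growth rates, and the differences of CGA and LSHB rested on a single library. CGA stood at 14.9, 14.7, 12.2 and 14.8 CPM in the hypothalami of the high growth rate birds 49, 50, 52 and 54, against 12.3, 15.1, 61.6 and 15.2 CPM in the low growth rate birds 33, 37, 38 and 40. All birds but 38 lay between 12.2 and 15.2 CPM. The log2 difference was -0.88 ± 0.46 (unadjusted p = 0.0838, adjusted p = 0.998 in edgeR), and without bird 38 it was -0.0033 ± 0.14. It was -0.54 with limma voom. The assembly holds 2 genes matched to the alpha subunit: the more abundant, aligned over 72 residues, gave -0.28 in the kallisto and -0.33 in the Salmon table, and the other, aligned over 120 residues, gave -0.66 and -0.64, none of them called.

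LSHB showed the same library standing apart, at 3.02, 2.76, 3.84 and 2.28 estimated CPM in the high growth rate birds 49, 50, 52 and 54, against 2.22, 2.90, 14.3 and 2.23 in the low growth rate birds 33, 37, 38 and 40. Its log2 difference was -0.87 ± 0.61 (adjusted p = 1.00 in edgeR) with bird 38 and 0.28 ± 0.24 without it, and -0.43 with limma voom. The counts behind these values were 114 to 668 for CGA and 48.3 to 329 estimated counts for LSHB.

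PRL and GH were also highest in the hypothalamus of bird 38, at 35.5 CPM and 91.3 estimated CPM, where the other hypothalami lay between 9.02 and 18.3 CPM and between 12.5 and 22.8 estimated CPM. Their log2 differences were -0.86 ± 0.37 and -1.26 ± 0.61 (adjusted p = 0.998 and 1.00 in edgeR) and read -0.33 and -0.15 without that library. Whether pituitary RNA is part of that library was not tested.

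NR5A1 did not stand apart in bird 38. Scaled over all 16 libraries, it was 154 CPM in the pituitary of that bird and 10.7 CPM in the hypothalamus. A share of that pituitary level as small as 0.491%, the LSHB share of bird 38, would hardly show. NR5A1 stood at 8.68, 14.3, 10.8 and 20.4 CPM in the hypothalami of the high growth rate birds 49, 50, 52 and 54. The low growth rate birds 33, 37, 38 and 40 had 14.1, 16.2, 11.53 and 16.1 CPM. High growth rate birds were both the lowest and the highest. The log2 difference was -0.09 ± 0.24 (adjusted p = 0.998 in edgeR), and it turned to 0.07 without bird 49.

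The authors' deposited table calls CGA in the hypothalamus, with a log2 difference of -0.88 (signs turned as above) and an adjusted p of 3.59e-05, at rank 16 of 12486 genes by p-value. It gives LSHB -0.87 with an adjusted p of 0.12 and NR5A1 -0.10 with an adjusted p of 1.00. In edgeR 0.0% of 13695 genes and 0.0% of 88359 assembled genes passed here, with 456 genes (3.33%) and 2249 assembled genes (2.55%) at an unadjusted p under 0.05. DESeq2 called 2 genes and 229 assembled genes in this comparison, and gave CGA an adjusted p of 0.999. The adjusted p of CGA ran from 0.621 to 1.00 over the alternatives run here.

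Of the surrounding lists 0 members passed in the hypothalamus, where 0.0% of all genes in either table passed. NR0B1 stood at 12.2, 12.9, 14.0 and 13.3 CPM in the high growth rate birds 49, 50, 52 and 54, against 10.6, 9.44, 10.6 and 10.3 CPM in the low growth rate birds 33, 37, 38 and 40, without overlap, as was so for 1.98% of genes and 2.73% of assembled genes (0.35 ± 0.11, unadjusted p = 0.00931, adjusted p = 0.998 in edgeR). SCARB1 differed by 0.24 ± 0.10 (unadjusted p = 0.0315), also without overlap.

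The growth rate differences were not shown to differ between the tissues for any of the 3 genes. Taking the hypothalamic difference from the pituitary difference gave 0.64 ± 0.67 for CGA, -0.45 ± 0.43 for NR5A1 and 1.15 ± 0.73 for LSHB on the log2 scale, with adjusted p-values of 1.00 in edgeR. That fit did not pair the tissues by bird. With the bird as a block the values were 0.22 ± 0.66, -0.38 ± 0.35 and 0.77 ± 0.76 in the same order, none called. Without bird 38, and without the block, the value was -0.39 for CGA and -0.18 for LSHB. Of all genes 0.0% passed in the gene table, with 206 (1.43%) at an unadjusted p under 0.05 and 1 called by DESeq2. Of the assembled genes 0.000904% passed and 4.38% had an unadjusted p under 0.05.

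Levels in the 2 tissues of a bird were not found to go together. Over 8 birds Pearson's r between pituitary and hypothalamus was -0.14 for CGA (exact permutation p = 0.918), 0.31 for NR5A1 (0.457) and -0.45 for LSHB (0.295), with adjusted values from 0.685 to 0.918. Spearman's rho was 0.52, 0.17 and 0.05, with exact permutation p-values of 0.197, 0.703 and 0.935. Without the 2 birds farthest from the median on the x axis, r was -0.31, 0.34 and -0.38. Without bird 38, whose pituitary held little and whose hypothalamus held most CGA and LSHB, r was 0.67 for CGA (exact permutation p = 0.0919, adjusted 0.276), with a rho of 0.86 (exact permutation p = 0.0238, adjusted 0.0714), and 0.15 for LSHB.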

How the data were processed

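Per the labels' protocols, RNA with RIN values above 7 was column-purified and made into TruSeq v2 libraries. The authors deposited whole-number counts per gene in a pair of gene tables (called here ENSACDG and ENSABRG after their identifiers), and estimated counts, from kallisto and from Salmon per the file names, for an assembly. The submitters' processing notes also name FastQC, STAR, RSEM and DESeq2 but no roles, and their only genome build is of another species, so the coordinates are of a build that the sources used here do not give. The authors' deposited tables of log2 differences, p-values and percent identity of protein matches were used as named.

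Estimated counts were rounded. Genes passing filterByExpr were tested with edgeR 4.0.16 in R 4.3.3 (TMM, quasi-likelihood, adjusted p under 0.05, and 2-fold between tissues). The fit was checked on simulated data with large changes in well counted genes. Differences as small as those between the growth rate groups were not simulated. Correlations used log2 CPM with a prior count of 2 and all 40320 permutations. Alternatives were DESeq2 1.42.0, limma 3.58.1 voom, other scaling, no filter, other tables, single birds left out and blocks. Bird numbers in the titles pair the tissues. Deviations of same-bird libraries had r from 0.184 to 0.389 in 8 pairs. Tissues of different birds were not set beside them, so these values do not test the pairing. Replicates differed by more than sampling noise.

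The genes and the 19 lists were chosen with earlier results of these data known. Of 185 listed symbols 138 were measured, 24 of them by protein entry in the kallisto table. Genes named were those that passed, and up to 4 a list by smallest p in the pituitary comparison of growth rates, and some of these genes are not reported here.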

Additional observations from a re-analysis of the deposited data

Results flagged for a closer look

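Within groups of 4 libraries, 24 sets of values were examined for a sample far from the other 3 (a gap to its nearest neighbour, as a share of the range, past Dixon's 95% critical value), for CGA, LSHB, NR5A1, PRL, POMC and GH in each of the 4 groups. Chance flags about 1 in 20 groups if sets are independent and values normally distributed, and 4 stood out. The genes share the same libraries and the CPM were not put on a log scale. The 4 are therefore not weighed against that rate. CGA in the hypothalamus of low growth rate bird 38 stood at 61.63 CPM, far above the other 3 birds of its group. In the same library LSHB stood at 14.25 estimated CPM and GH at 91.31 estimated CPM, each far above the rest of the group. In the high growth rate group, CGA in the hypothalamus of bird 52 stood at 12.16 CPM, below the other 3 birds, whose values were very close together. PRL was highest in the hypothalamus of bird 38 too, but its gap was 0.667 of the range.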

How the results depend on the processing

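The 12 differences of CGA, NR5A1 and LSHB (4 comparisons each) were recomputed under 189 alternatives in all. Of these 182 kept direction and side of the threshold and 7 turned sign, none of them a called difference. NR5A1 in the hypothalamus read 0.0238 in the kallisto and 0.0339 in the Salmon table.

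With single birds left out, CGA ran from -0.55 to 0.0809 in the pituitary, from -1.11 to -0.0033 in the hypothalamus, from 10.16 to 10.93 between tissues and from -0.39 to 1.13 in the interaction. NR5A1 ran from -0.78 to -0.39, from -0.35 to 0.0738, from 4.14 to 4.42 and from -0.77 to -0.21 in the same comparisons, and LSHB from 0.06 to 0.62, from -1.13 to 0.28, from 10.09 to 11.04 and from -0.18 to 1.71. The correlation of NR5A1 with LSHB ran from -0.30 to 0.48 and read -0.0145 in the Salmon table, and those between tissues ran from -0.32 to 0.67 for CGA and from -0.81 to 0.15 for LSHB.

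Counts of calls moved as follows. For growth rate in the pituitary edgeR called 0 genes and 0 assembled genes, a fit of all 16 libraries 1 and 2, and DESeq2 5 and 262. In the hypothalamus the counts were 0 and 0 with edgeR, 2 assembled genes with all 16 libraries, and 2 and 229 with DESeq2. The interaction had 0 genes and 1 assembled gene with edgeR, 1 and 161 with DESeq2, and 49 in the Salmon table. The 1 assembled gene was 0 with limma voom, with the bird as a replicate block and without any single bird. Between tissues 4948 genes were called, against 30399 in the kallisto and 36622 in the Salmon table, which hold more genes. The cause of the other moves was not tested. DESeq2 gave no adjusted p for LSHB in the hypothalamus or for SST between tissues.

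The bird as a replicate block kept the tissue calls of the 3 genes, and of the other named genes it ended those of JUN (0.99) and EYA3 (1.00), which fell under 2-fold. Replicant tags are shared by birds of both growth groups, and the sources used here do not say what a tag stands for. Libraries with the same tag had correlations from -0.246 to 0.396. Whether they share a condition was not tested. With that tag as a replicate block CGA read -0.28, NR5A1 -0.52 and LSHB 0.38 in the pituitary and -0.53, -0.15 and -0.38 in the hypothalamus, none called. Hypothalamic CGA and LSHB rest on few counts and on bird 38, and 4 birds a group limit every growth rate comparison.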
